A study of Mus musculus with 12 samples.

Results

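Chemokines are small secreted proteins that direct the movement of leukocytes, and their receptors are G protein-coupled receptors on the cells that respond. The genes described here were all those on the array whose name begins with Ccl, Cxcl, Ccr, Cxcr, Cx3c, Xcl or Xcr followed, for the Ccl, Cxcl, Ccr and Cxcr names, by a number. They came to 54 genes, 35 of ligands and 19 of receptors, out of 34607 named genes. They were measured by 71 probes, each 60 bases long.

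RNA from whole liver was hybridised to one-colour Agilent arrays, with 1 array per mouse and 4 mice in each of 3 groups. The groups were E2f1 knockout (E2f1-/-), E2f2 knockout by label (E2f2-/-), and wild type, whose strain was 129/Sv x C57BL/6. Both E2f1 and E2f2 encode transcription factors of the cell cycle. According to the protocol, every mouse in all 3 groups received 25 mg/kg of diethylnitrosamine, a liver carcinogen, into the peritoneum on postnatal day 14. From weaning all were fed a diet with 60% of its calories from fat for 32 weeks, and all were killed at 9 months after a 4-hour fast. For the E2f1 knockout mice a label field gives vehicle and chow instead, against their other fields and the protocol, and every comparison with those mice carries this conflict. The sources used here do not give the strain of the knockout mice, the sex of any mouse or the deleted exons, nor whether a liver piece held tumour tissue. Apart from that field, no group analysed here was given as untreated or chow-fed. All differences are between groups as labelled, and genotype cannot be told apart from the items not given or from this label conflict.

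Across the 12 arrays, 75th percentiles ranged from 108 to 212 intensity units, and 44.7% to 54.4% of probes were well above background. Values below are log2 signals relative to the array's own 75th percentile, so 0 marks that percentile and a difference of 1 is a doubling. The E2f1 probe was lower in E2f1 knockout livers by a log2 difference of -0.83 ± 0.19 (SE, n = 4 per group, limma adjusted p = 0.0106), and it stayed above background on all 4 of their arrays. For the E2f2 probe, the log2 difference was -0.29 ± 0.21 under the E2f2 knockout label (adjusted p = 0.361) and -1.51 ± 0.21 in E2f1 knockout livers (adjusted p = 0.00136). Its level does not check the E2f2 label, and the files do not say whether they lie in the deleted part of each gene, so that group is called E2f2-labelled throughout. Hepatocyte markers were above background on every array, with 9 of 9 tested, and albumin (Alb) averaged 11.55 in E2f1 knockout, 11.09 in E2f2-labelled and 11.47 in wild-type livers. Each of 4 slides carried 1 array of each group. Every group kept its own column on the slide, so group cannot be told apart from column, while the row was shared by the groups of a slide.

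In liver, chemokines come from hepatocytes, endothelial and stellate cells and from the leukocytes themselves, and they draw monocytes, neutrophils and lymphocytes into injured or fatty tissue. CC chemokines act mainly on monocytes, eosinophils and T cells, and CXC chemokines on neutrophils or, for the interferon-induced members, on T and NK cells. Many are switched on through NF-kappaB or interferon-activated factors that bind close to the start of the gene.

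RefSeq promoter windows (build GRCm38.p6, 250 bases before to 50 bases after the gene's start) were matched for 39 of the 54 genes, which gave 43 windows. The 4 printed here were chosen, after the matches were known, because they show, for genes described below, which of the searched motifs stand near the start. Capitals mark matches to a short form of the NF-kappaB motif (GGG, 3 bases of any kind, then TTCC) and to a form of the interferon-stimulated response element (GAAA, 2 bases of any kind, then GAAA). The fuller NF-kappaB form (GGG, 2 bases of any kind, then TTTCC) lies within the short one. Both strands were searched, and all sequences read 5′ to 3′ along the strand of the gene. Cxcl9 lies at chr5:92328030-92328329 (minus strand), Cxcl10 at chr5:92348840-92349139 (minus strand), Ccl9 at chr11:83578587-83578886 (minus strand) and Cxcl1 at chr5:90890995-90891294 (plus strand).
Cxcl9: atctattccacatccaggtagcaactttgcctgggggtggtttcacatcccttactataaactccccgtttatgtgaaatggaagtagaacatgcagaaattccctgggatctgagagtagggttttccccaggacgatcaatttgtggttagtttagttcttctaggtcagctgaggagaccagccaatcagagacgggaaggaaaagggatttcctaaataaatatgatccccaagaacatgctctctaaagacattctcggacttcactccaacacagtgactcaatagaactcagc
Cxcl10: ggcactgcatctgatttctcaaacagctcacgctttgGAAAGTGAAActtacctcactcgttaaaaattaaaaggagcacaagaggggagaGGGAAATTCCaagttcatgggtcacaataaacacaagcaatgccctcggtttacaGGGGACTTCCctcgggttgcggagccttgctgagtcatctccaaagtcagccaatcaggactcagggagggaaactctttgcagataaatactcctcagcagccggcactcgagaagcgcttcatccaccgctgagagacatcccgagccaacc
Ccl9: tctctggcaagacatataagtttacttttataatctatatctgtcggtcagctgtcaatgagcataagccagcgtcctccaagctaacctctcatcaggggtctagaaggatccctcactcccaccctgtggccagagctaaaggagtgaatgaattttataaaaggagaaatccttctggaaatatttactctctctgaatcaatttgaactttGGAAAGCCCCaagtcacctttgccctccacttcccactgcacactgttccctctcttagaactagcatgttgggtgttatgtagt
Cxcl1: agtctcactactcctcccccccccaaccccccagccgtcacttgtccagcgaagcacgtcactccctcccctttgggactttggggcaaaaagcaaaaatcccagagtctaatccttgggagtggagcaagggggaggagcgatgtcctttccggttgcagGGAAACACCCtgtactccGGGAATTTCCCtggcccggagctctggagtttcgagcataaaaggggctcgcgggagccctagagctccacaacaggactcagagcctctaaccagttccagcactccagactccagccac
The Cxcl10 window held 2 matches to the short NF-kappaB motif, which began 159 and 104 bases before the start, and 1 match to the interferon motif 213 bases before it. The Cxcl1 window held GGAAACACCC, on the opposite strand, and GGGAATTTCC, from 89 and 71 bases before the start, the second overlapped by a further match on the opposite strand. In Ccl9 a match on the opposite strand began 35 bases before the start. The Cxcl9 window held no match to these motifs.

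Across all 43 windows, the fuller NF-kappaB form was found in 6 (14.0%), in Ccl20, Ccl9, Ccr3, Cxcl1, Cxcl2 and Cxcl3, against 1.63% of 32851 windows of all genes. The short form was found in 9 (20.9%), against 5.56% of all windows, with Ccl1, Ccr6 and Cxcl10 as the genes added. The interferon motif, added to the search after the expression values had been seen, was in 3 windows (6.98%), those of Ccl19, Cxcl10 and Cxcl14, against 3.44% of all windows. The E2F motif TTTNNCGC was in 0 of the 43 windows and in 5.17% of all windows, and this says only that these letters are not in these stretches. Windows of Ccl2, Ccl4, Ccl5, Ccl24, Cxcl16 and Cxcl17 were not used here.

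Of the 54 genes, 33 were tested, 22 ligands and 11 receptors. Testing required a signal well above background on 3 or more of the 4 arrays in some group, and the brightest probe that met this stood for its gene. The 21 genes not tested were Ccl8, Ccl11, Ccl12, Ccl17, Ccl20, Ccl22, Ccl26, Ccl28, Cxcl2, Cxcl3, Cxcl5, Cxcl15, Xcl1, Ccr1, Ccr1l1, Ccr4, Ccr10, Cxcr1, Cxcr4, Cxcr5 and Xcr1. Ccl1, Ccr6 and Ccr9 were tested because of the E2f1 knockout arrays alone, and Ccl7 and Cxcl17 because of the wild-type arrays alone. Ccl24 was tested because of the E2f1 knockout and E2f2-labelled arrays, where it was high. A gene was called if its limma adjusted p, taken over all 20572 genes tested, was under 0.05.

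Against wild type, more chemokine and receptor genes were lower than higher in both groups. In E2f1 knockout livers 12 of the 33 were called lower and 3 higher, where 7.48% of all tested genes were called lower and 12.8% higher. In E2f2-labelled livers 13 were called lower and 3 higher, where 7.85% of all tested genes were lower and 12.5% higher. The median log2 difference of the 33 was -0.79 in E2f1 knockout livers, beside 0.12 for all genes tested, and -0.59 in E2f2-labelled livers, beside 0.15. Within single slides the median ran from -1.13 to -0.20 for E2f1 knockout and from -1.15 to -0.31 for E2f2-labelled. These comparisons share their 4 wild-type livers and are not independent of each other. The mean of 11 inflammatory macrophage markers was also lower in all 8 livers of those groups than in any wild-type liver, and its part in these counts was not tested.

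**Figure D1:**
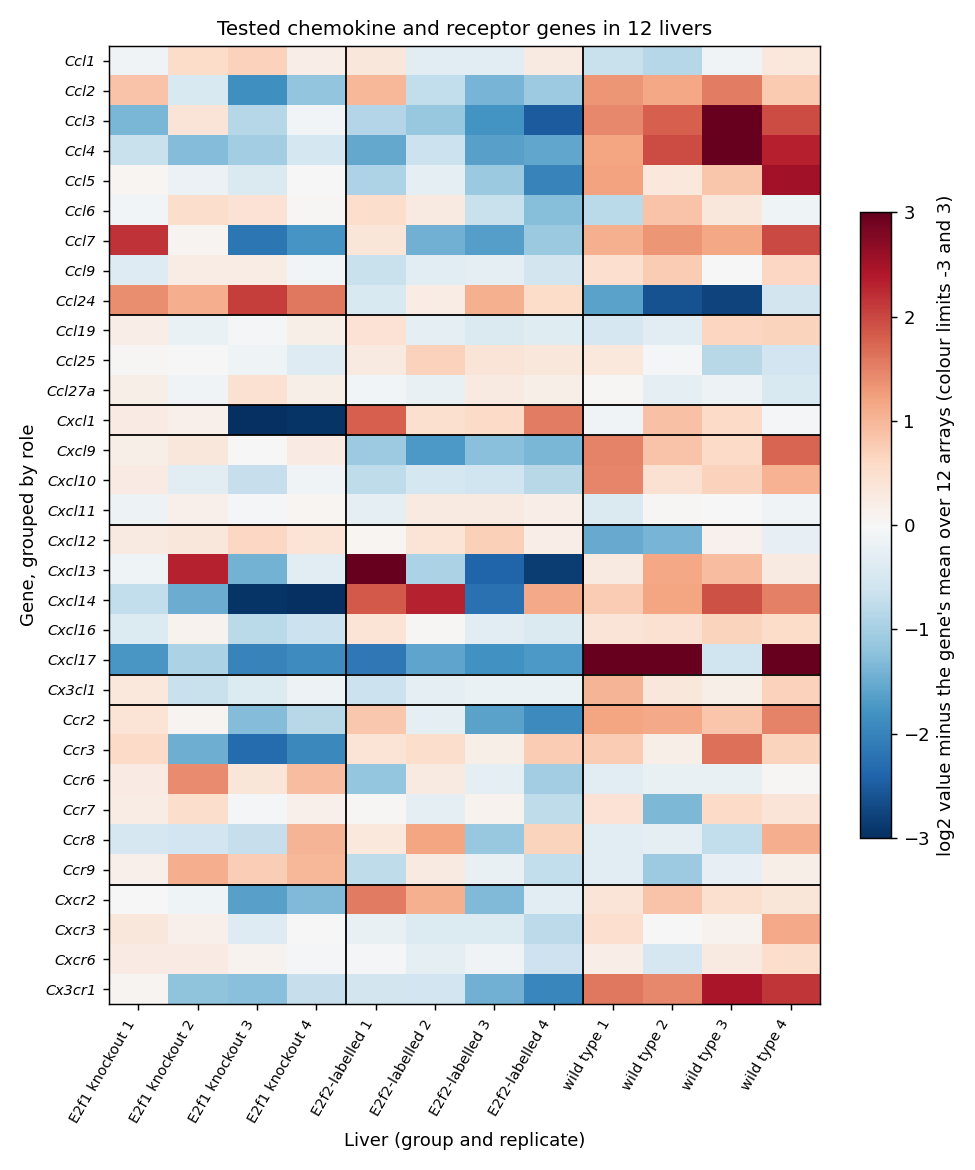
Log2 signal of tested genes (rows, grouped by role) in the 12 livers (columns), each gene centred on its mean over all arrays, with colours capped at -3 and 3. Ccl3, Ccl4, Cx3cr1 and Cxcl17 are darkest red in wild-type livers, except that Cxcl17 is below its mean in wild-type replicate 3. Ccl24 is blue in wild-type livers, and Cxcl1 splits the 4 E2f1 knockout livers.

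All 4 livers of a group lay below all 4 wild-type livers for 11 of the 33 genes in E2f1 knockout, and all above them for 3. Over all tested genes these shares were 6.98% and 14%. For E2f2-labelled livers the counts were 13 below and 1 above, against 7.48% and 15.1% of all tested genes. Because the filter can let in a gene through the group where it is high, limma calls were counted again under other filters. The counts of groups that do not overlap were not repeated. The first such filter kept the 24 members that were above background on all 12 arrays. Of these 24, limma called 10 lower and 1 higher in E2f1 knockout livers (7.19% and 14.6% of all genes so filtered). In E2f2-labelled livers it called 11 lower and 2 higher (7.53% and 14.3%). With no filter on dim probes, which tests all 34607 genes, 10 were lower and 1 higher in E2f1 knockout livers (3.05% and 4.72% of all genes), and 12 lower and 1 higher in E2f2-labelled livers (3.55% and 4.55%). In whole liver, fewer cells of a type and less RNA per cell cannot be told apart.

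**Figure D2:**
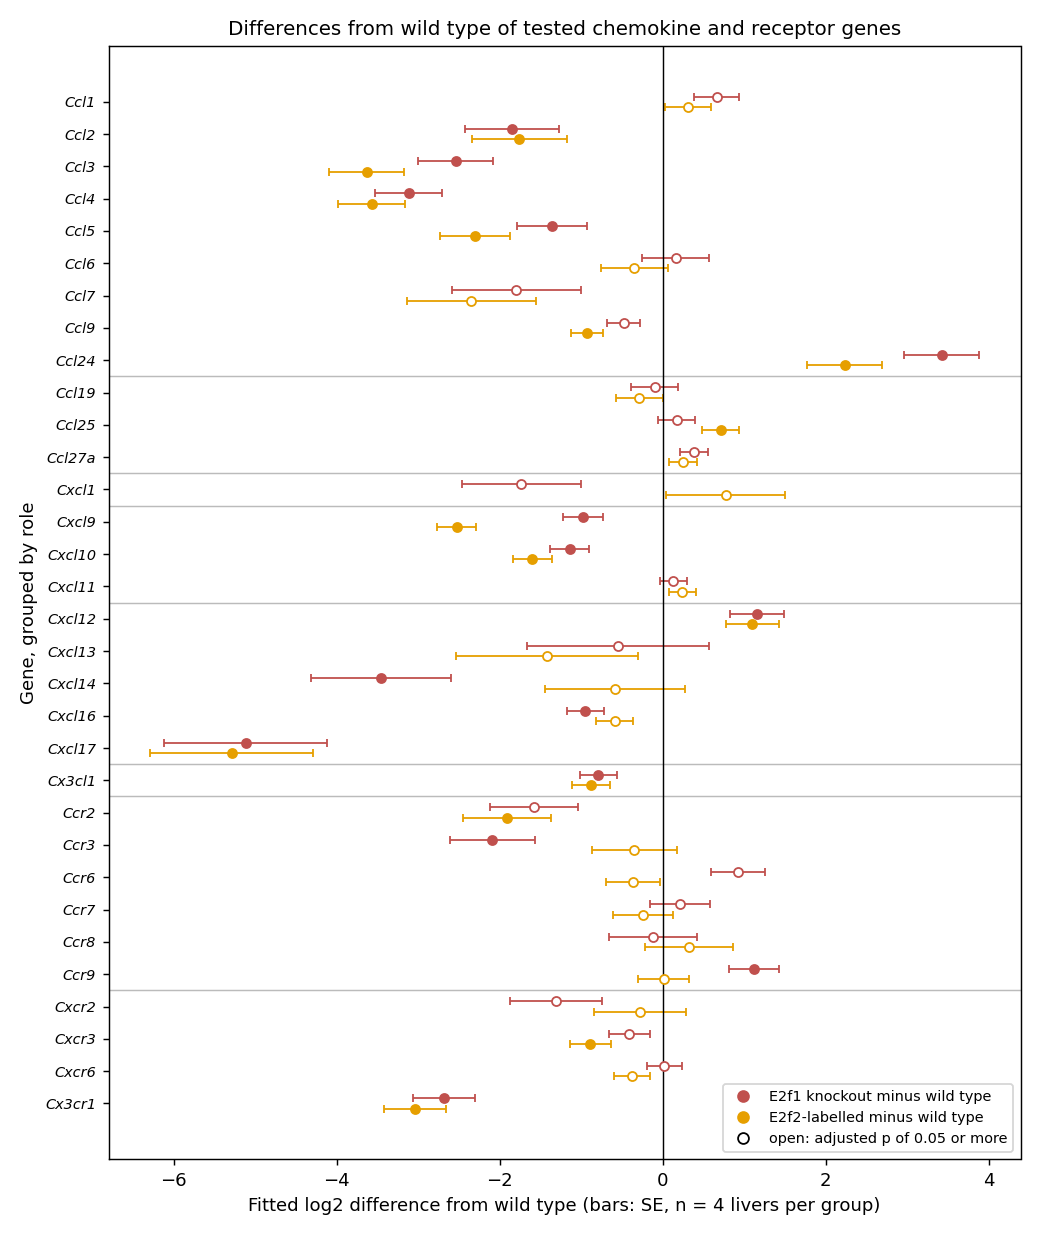
Fitted log2 difference from wild type (points) with its standard error (bars) for tested genes, in E2f1 knockout and E2f2-labelled livers, with filled points where the limma adjusted p was under 0.05. Ligands lie above and receptors below, and the largest differences are those of Cxcl17, Ccl3, Ccl4, Cxcl14, Ccl24 and Cx3cr1.

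The CC chemokines of inflammation held 9 tested genes, of which 4 fell and 1 rose in E2f1 knockout livers and 5 fell and 1 rose in E2f2-labelled livers. Over all tested genes, 7.48% were lower and 12.8% higher in E2f1 knockout livers and 7.85% and 12.5% in E2f2-labelled livers. Thus 1 higher of 9 is near that share. Ccl3 and Ccl4, the macrophage inflammatory proteins, had the largest decreases. Ccl3 values were -3.91, -2.17, -3.41 and -2.64 in E2f1 knockout livers and -3.42, -3.69, -4.33 and -5.04 in E2f2-labelled livers, against -1.10, -0.76, 0.50 and -0.59 in wild-type livers. Every liver of both groups was below every wild-type liver, and Ccl3 was above background on 3, 1 and 4 arrays of the groups in that order. Its log2 difference was -2.54 ± 0.46 in E2f1 knockout (SE, n = 4, adjusted p = 0.00406) and -3.63 ± 0.46 in E2f2-labelled livers (adjusted p = 0.000473). With normexp background correction, whose offset draws dim signals together, the Ccl3 differences shrank to -1.01 and -1.10, both still called, so the size of the decrease is not settled. Ccl4 values were -1.37, -2.01, -1.74 and -1.24 in E2f1 knockout livers and -2.23, -1.34, -2.34 and -2.26 in E2f2-labelled livers, against 0.48, 1.25, 2.75 and 1.63 in wild-type livers. The groups again did not overlap, with differences of -3.12 ± 0.41 (adjusted p = 0.000924) and -3.57 ± 0.41 (adjusted p = 0.000253), 8.67-fold and 11.9-fold lower. With normexp the Ccl4 differences were -2.03 and -2.17, both called.

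Ccl5, a T cell and monocyte attractant, had 3.22, 2.97, 2.71 and 3.15 in E2f1 knockout livers and 2.23, 2.88, 2.04 and 1.15 in E2f2-labelled livers, against 4.35, 3.47, 3.99 and 5.66 in wild-type livers. All livers of both groups were below the lowest wild-type liver. The differences were -1.36 ± 0.43 (adjusted p = 0.0446) and -2.30 ± 0.43 (adjusted p = 0.00468). The E2f1 knockout call was lost with the slide as a block (adjusted p = 0.0718), and when wild-type replicate 1 or 4, any E2f1 knockout replicate, or E2f2-labelled replicate 1 or 3 was left out, with adjusted p up to 0.113. It was also lost with array weights (0.104) and with no filter on dim probes (0.087). The E2f2-labelled call held in each of these fits, with adjusted p up to 0.014.

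Ccl2, which recruits Ccr2-bearing monocytes, had 0.59, -0.72, -2.11 and -1.45 in E2f1 knockout livers and 0.72, -1.01, -1.66 and -1.37 in E2f2-labelled livers, against 1.04, 0.89, 1.27 and 0.52 in wild-type livers. Replicate 1 of both groups lay inside the wild-type range, and the other 3 livers of each lay below it. The differences were -1.85 ± 0.58 (adjusted p = 0.0400) and -1.76 ± 0.58 (adjusted p = 0.0487), 3.62-fold and 3.39-fold lower. Both calls were near the threshold. With the slide as a block the adjusted p was 0.012 and 0.0141, and over the fits that left out 1 array it ran from 0.0116 to 0.117 and from 0.0131 to 0.127. The E2f1 knockout call was lost without any 1 wild-type array, without E2f1 knockout replicate 2, 3 or 4, and without E2f2-labelled replicate 2, and also with no filter on dim probes (adjusted p = 0.0771) and with array weights (0.0638). The E2f2-labelled call was lost without any 1 wild-type array, without E2f1 knockout replicate 2 or 4, and without E2f2-labelled replicate 2, 3 or 4. It was also lost with quantile normalization (adjusted p = 0.0506), series matrix values (0.0513) and no filter (0.091). With normexp the Ccl2 differences were -1.23 and -1.14, both called.

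Ccl9, a mouse chemokine that acts on Ccr1, was lower in E2f2-labelled livers. Its values were 3.29, 3.90, 3.92 and 3.61 in E2f1 knockout livers and 3.02, 3.37, 3.39 and 3.13 in E2f2-labelled livers, against 4.19, 4.45, 3.67 and 4.32 in wild-type livers. The E2f2-labelled livers did not overlap wild type (-0.93 ± 0.20, adjusted p = 0.00878), while the E2f1 knockout livers did (-0.48 ± 0.20, adjusted p = 0.116). Ccl7, a second ligand of Ccr2, was above background on 1, 0 and 4 arrays, and its differences of -1.80 and -2.35 missed the threshold (adjusted p = 0.131 and 0.0543), which with the slide as a block were 0.0832 and 0.0327. Its level in wild type was at least 2.4-fold higher than in E2f2-labelled livers, where the dim group was set, array by array, to whichever was higher of its own value and the dimmest signal that still stood well above background. Ccl6 and Ccl1 were not called, with differences of 0.16 and 0.66 in E2f1 knockout and -0.35 and 0.31 in E2f2-labelled livers.

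Ccl24 (eotaxin-2), which attracts eosinophils through Ccr3, moved the other way. It had 0.36, 0.05, 1.03 and 0.53 in E2f1 knockout livers and -1.51, -0.81, 0.03 and -0.49 in E2f2-labelled livers, against -2.65, -3.65, -3.81 and -1.59 in wild-type livers. Every liver of both groups was above every wild-type liver, although the lowest E2f2-labelled liver was close to the highest wild-type liver. The rise was 3.42 ± 0.46 on the log2 scale in E2f1 knockout (adjusted p = 0.00113) and 2.23 ± 0.46 in E2f2-labelled livers (adjusted p = 0.00704). The probe was above background on all 8 arrays of those groups and on 2 of 4 wild-type arrays. With normexp the Ccl24 differences shrank to 1.70 and 0.93, both still called, so the size of the rise is not settled.

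Among the CC chemokines of lymphoid tissue and barriers, 3 genes were tested, and limma called 0 of them in E2f1 knockout livers. There Ccl27a alone was higher at an unadjusted p under 0.05, as were 21.3% of all tested genes. Ccl25, the thymic and intestinal ligand of Ccr9, rose in E2f2-labelled livers. Its values were -0.15, -0.21, -0.32 and -0.59 in E2f1 knockout livers and 0.07, 0.49, 0.18 and 0.14 in E2f2-labelled livers, against 0.11, -0.26, -1.04 and -0.78 in wild-type livers. Wild-type replicate 1 lay within the E2f2-labelled range. The difference of 0.71 ± 0.23 had an adjusted p of 0.0469, and this call was kept in 6 of 21 alternative fits. It was lost without wild-type replicate 2, 3 or 4 and without any 1 array of the E2f1 knockout or E2f2-labelled group, with adjusted p up to 0.12. It was also lost with normexp (0.0752), median centring (0.104), no filter (0.1) and the mean of all tested probes (0.376). In E2f1 knockout livers the difference was 0.17 ± 0.23 (adjusted p = 0.664). Another of its tested probes gave -0.36 in E2f2-labelled livers (adjusted p over probes = 0.541). Ccl19, a ligand of Ccr7, differed by -0.10 and -0.29 and was not called. Ccl27a was measured by 3 probes that disagreed, with differences of 0.38, 0.28 and -0.61 in E2f1 knockout livers and 0.25, 0.20 and -0.84 in E2f2-labelled livers, the last with an adjusted p over probes of 0.0422. Mice carry near-identical copies of Ccl19 and Ccl27a, so their probes may read more than 1 gene.

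Of the Cxcr2 ligands among the genes matched by name, which draw neutrophils, Cxcl1 alone was tested. Chemokines with other names, Ppbp among them, are counted further below. Cxcl2, Cxcl3, Cxcl5 and Cxcl15 were above background on 0 of the 12 arrays. Cxcl1 had 4.94, 4.83, 1.56 and 1.74 in E2f1 knockout livers and 6.48, 5.16, 5.27 and 6.22 in E2f2-labelled livers, against 4.58, 5.57, 5.26 and 4.64 in wild-type livers. Replicates 3 and 4 of the E2f1 knockout group stood about 3 log2 units below all other livers, and replicates 1 and 2 lay inside the wild-type range. No call resulted, with differences of -1.74 ± 0.73 (adjusted p = 0.112) and 0.77 ± 0.73 (adjusted p = 0.481).

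Cxcl9 and Cxcl10, which interferon-gamma induces and which attract T and NK cells through Cxcr3, were both lower in both groups. Cxcl9 had 1.76, 1.92, 1.60 and 1.83 in E2f1 knockout livers and 0.49, -0.15, 0.32 and 0.22 in E2f2-labelled livers, against 3.07, 2.44, 2.16 and 3.33 in wild-type livers. The 3 groups formed 3 separate ranges, with wild type highest, E2f1 knockout in the middle and E2f2-labelled lowest. The decreases were -0.98 ± 0.24 (1.97-fold, adjusted p = 0.0162) and -2.53 ± 0.24 (5.78-fold, adjusted p = 7.19e-05), and a further Cxcl9 probe gave -0.89 and -2.26. Cxcl10 had 0.94, 0.37, 0.00 and 0.59 in E2f1 knockout livers and -0.07, 0.17, 0.10 and -0.13 in E2f2-labelled livers, against 2.16, 1.15, 1.40 and 1.74 in wild-type livers. All livers of both groups lay below wild type, with differences of -1.14 ± 0.24 (2.20-fold, adjusted p = 0.00752) and -1.60 ± 0.24 (3.02-fold, adjusted p = 0.00134).

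Cxcl11, the remaining Cxcr3 ligand, was not called in either comparison, with differences of 0.13 and 0.24. Its brighter probe lay between 9.93 and 10.64 on the 12 arrays, while a neighbouring probe of the same gene lay between 3.3 and 4.2. The brighter probe holds a stretch of 25 bases that is also found in 3 other probes of the array, so its signal may not be that of Cxcl11 alone, and this was not tested. The stretch is shown because it bears on how far this probe can be read.
Cxcl11 probe stretch: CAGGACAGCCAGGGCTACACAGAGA
The dimmer probe differed by 0.14 ± 0.18 and 0.05 ± 0.18.

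The other CXC chemokines were Cxcl12, Cxcl13, Cxcl14, Cxcl16 and Cxcl17, all tested, of which 3 fell and 1 rose in E2f1 knockout livers and 1 fell and 1 rose in E2f2-labelled livers. Over all tested genes, 7.48% were lower and 12.8% higher in E2f1 knockout livers and 7.85% and 12.5% in E2f2-labelled livers. Counts of 1 in so few genes are not read as a result. Cxcl17, a chemokine of mucosal tissues, had -5.43, -4.62, -5.68 and -5.57 in E2f1 knockout livers and -5.81, -5.26, -5.50 and -5.39 in E2f2-labelled livers, against 1.92, 1.19, -4.28 and 0.36 in wild-type livers. Wild-type replicate 3 was near the other groups, the other 3 wild-type livers were far above them, and the probe was not well above background on any array of the E2f1 knockout or E2f2-labelled group. With the dim group set as for Ccl7 and wild-type replicate 3 at its measured value, the wild-type mean was 10.7-fold above E2f1 knockout (limma adjusted p = 0.00575). It was 12-fold above E2f2-labelled livers (adjusted p = 0.00483). Neither is a strict lower limit, since not every wild-type array was above background. Without wild-type replicate 3 the fitted Cxcl17 differences went to -6.48 and -6.64 on the log2 scale (adjusted p = 2.42e-06 and 1.2e-06). Over all fits that left out 1 array, the limma adjusted p was at most 0.0205 and 0.0176. With normexp the fitted Cxcl17 differences were -1.90 and -1.88, both called, so the fold values apply to the scanner-processed signal alone.

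Cxcl14 had 1.56, 0.79, -0.65 and -0.98 in E2f1 knockout livers and 4.13, 4.59, 0.05 and 3.42 in E2f2-labelled livers, against 3.06, 3.48, 4.20 and 3.81 in wild-type livers. The E2f1 knockout livers were all below wild type, with a difference of -3.46 ± 0.86 (11-fold, adjusted p = 0.0162). This call was lost without E2f1 knockout replicate 3 (adjusted p = 0.0519). In the E2f2-labelled group replicate 3 was far below the other 3, which lay in or above the wild-type range, and the difference of -0.59 ± 0.86 (adjusted p = 0.662) became 0.41 without that liver. Cxcl14 is a chemokine of epithelia whose receptor is less well defined.

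Cxcl16, the membrane-bound ligand of Cxcr6, had 0.03, 0.54, -0.39 and -0.21 in E2f1 knockout livers and 0.85, 0.47, 0.10 and 0.00 in E2f2-labelled livers, against 0.81, 0.89, 1.09 and 0.98 in wild-type livers. The E2f1 knockout livers were all below wild type (-0.95 ± 0.23, 1.93-fold, adjusted p = 0.0136), and the E2f2-labelled livers overlapped it at replicate 1 (-0.59 ± 0.23, adjusted p = 0.0869). Cxcl12, the stromal ligand of Cxcr4, rose. It had 5.81, 5.90, 6.18 and 5.95 in E2f1 knockout livers and 5.62, 5.96, 6.27 and 5.74 in E2f2-labelled livers, against 4.04, 4.16, 5.68 and 5.30 in wild-type livers. Wild-type replicates 1 and 2 were more than a log2 unit below replicates 3 and 4, and replicate 3 lay within the E2f2-labelled range. The differences were 1.16 ± 0.33 (adjusted p = 0.027) and 1.10 ± 0.33 (adjusted p = 0.0339). A further Cxcl12 probe gave 1.08 and 1.21. Both Cxcl12 calls were lost with quantile normalization (adjusted p = 0.0781 and 0.0826), with series matrix values (0.0794 and 0.0848) and with no filter on dim probes (0.0567 and 0.069), and the E2f2-labelled call also with median centring (0.0535). Both were lost without wild-type replicate 1 or 2. The E2f1 knockout call was also lost without replicate 2, 3 or 4 of that group (adjusted p up to 0.0841), and the E2f2-labelled call without replicate 2, 3 or 4 of its group (up to 0.1). Cxcl13, the B cell attractant, ranged from -0.40 to 3.32 in E2f1 knockout, from -1.83 to 4.14 in E2f2-labelled and from 1.28 to 2.18 in wild-type livers and was not called.

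Cx3cl1 (fractalkine), an endothelial and epithelial ligand for Cx3cr1, had -0.92, -1.91, -1.63 and -1.39 in E2f1 knockout livers and -1.87, -1.49, -1.43 and -1.43 in E2f2-labelled livers, against -0.22, -0.88, -1.05 and -0.55 in wild-type livers. E2f1 knockout replicate 1 lay inside the wild-type range, and the E2f2-labelled livers lay wholly below it. The decreases were -0.79 ± 0.23 (adjusted p = 0.0343) and -0.88 ± 0.23 (adjusted p = 0.0213). The E2f1 knockout call was lost without wild-type replicate 1, 2 or 4 and without E2f1 knockout replicate 2, 3 or 4 (adjusted p up to 0.0911), and the E2f2-labelled call without wild-type replicate 1 or E2f2-labelled replicate 1 (up to 0.0592). With normexp both Cx3cl1 calls were lost (-0.40 and -0.43, adjusted p = 0.0759 and 0.0582), and with no filter the E2f1 knockout call was (0.0763). Xcl1, made by T and NK cells, was above background on 1 of 12 arrays.

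**Figure D3:**
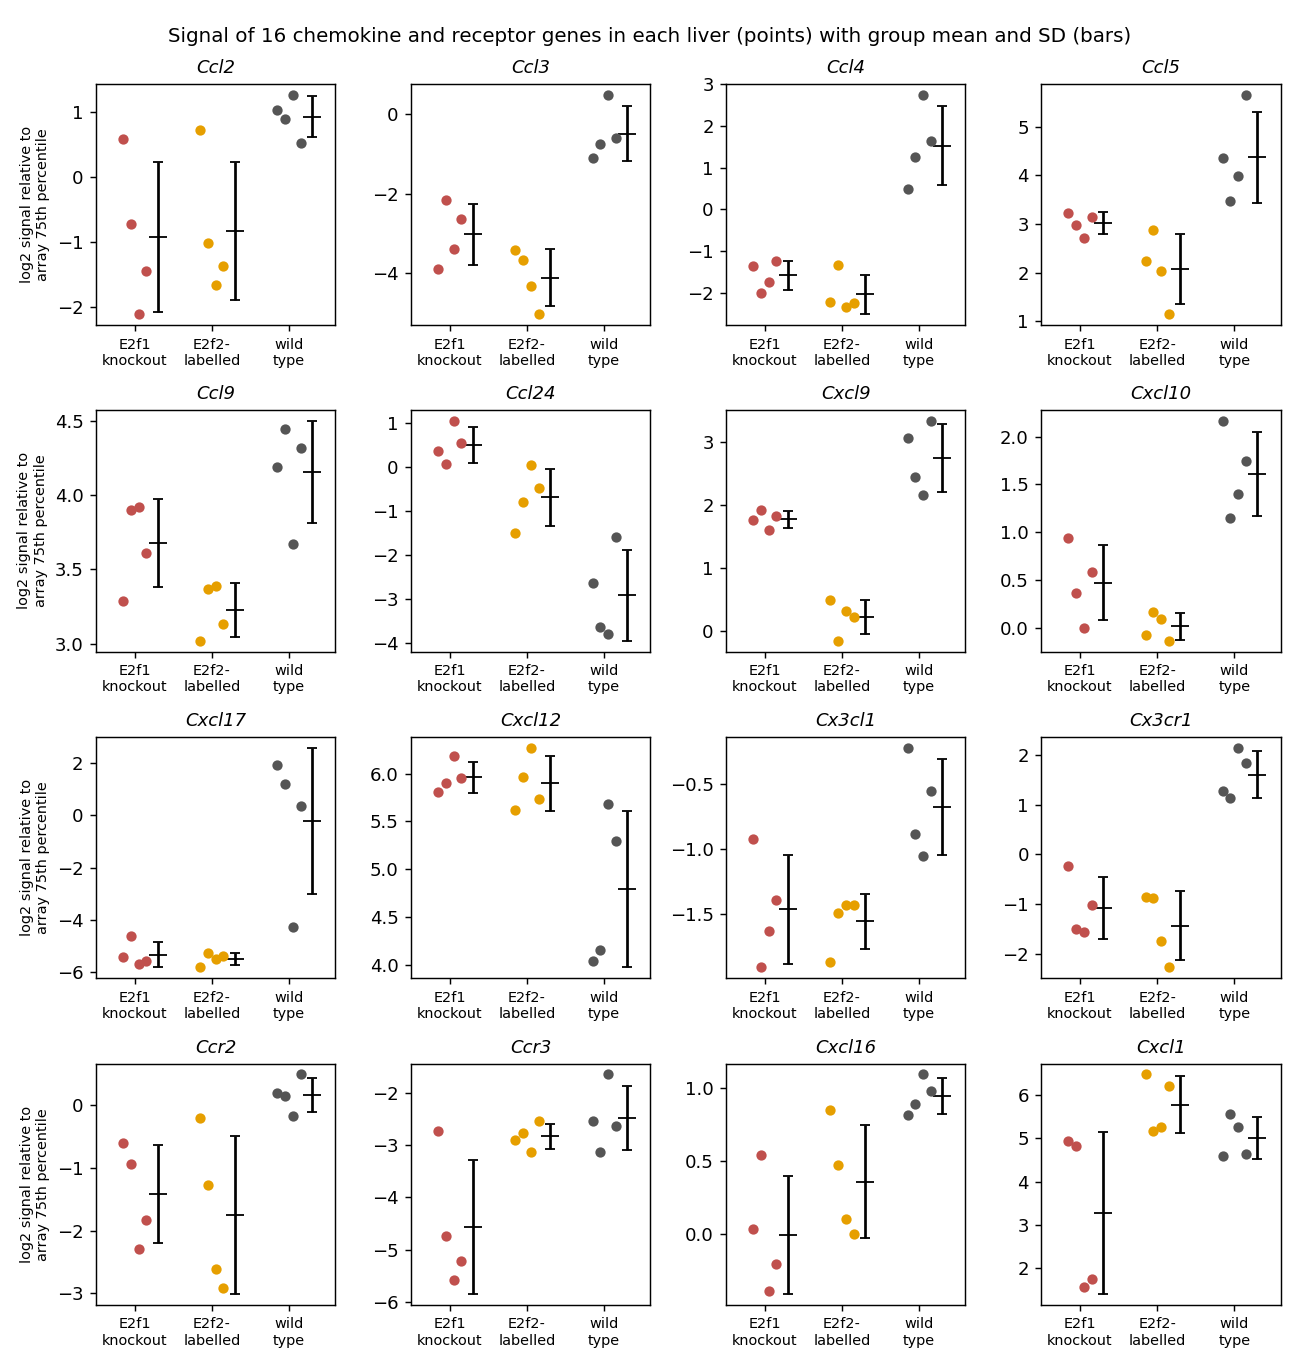
Log2 signal of 16 chemokine and receptor genes in each liver (points, replicates 1 to 4 from left to right in each group), with group mean and SD (bars, n = 4). Cxcl9 shows 3 separate ranges, Ccl24 is higher outside wild type, and in Cxcl1 and Ccr2 the E2f1 knockout replicates 3 and 4 sit below replicates 1 and 2.

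The receptors held 11 tested genes, of which 2 fell and 1 rose in E2f1 knockout livers and 4 fell and 0 rose in E2f2-labelled livers. Over all tested genes, 7.48% were lower and 12.8% higher in E2f1 knockout livers and 7.85% and 12.5% in E2f2-labelled livers, so that 1 of 11 higher is near that share. At an unadjusted p under 0.05, the members higher in E2f2-labelled livers were Ccl24, Ccl25 and Cxcl12, which are all ligands, beside 22.6% of all tested genes. The largest receptor decrease was that of Cx3cr1, the receptor of monocytes and tissue macrophages. It had -0.23, -1.51, -1.57 and -1.01 in E2f1 knockout livers and -0.86, -0.88, -1.74 and -2.27 in E2f2-labelled livers, against 1.28, 1.13, 2.14 and 1.83 in wild-type livers. All livers of both groups were below wild type. The differences were -2.68 ± 0.38 (6.40-fold, adjusted p = 0.00141) and -3.04 ± 0.38 (8.20-fold, adjusted p = 0.000469), and 2 further probes of the gene gave -2.65 and -2.58 in E2f1 knockout and -2.94 and -2.79 in E2f2-labelled livers. With normexp the Cx3cr1 differences were -1.84 and -1.98, both called.

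Ccr2, the receptor for Ccl2 on inflammatory monocytes, had -0.60, -0.93, -2.30 and -1.83 in E2f1 knockout livers and -0.20, -1.27, -2.61 and -2.92 in E2f2-labelled livers, against 0.19, 0.14, -0.18 and 0.49 in wild-type livers. No liver of either group reached the lowest wild-type liver, though E2f2-labelled replicate 1 came close to it. The E2f2-labelled decrease was called (-1.91 ± 0.54, adjusted p = 0.0274) and the E2f1 knockout one was not (-1.58 ± 0.54, adjusted p = 0.0591), and with the slide as a block the adjusted p was 0.00981 and 0.0212. The E2f2-labelled call was lost without wild-type replicate 1, 2 or 4 or E2f2-labelled replicate 3 or 4, with adjusted p up to 0.0789, and with no filter on dim probes (0.0539). With normexp both Ccr2 differences were -0.93 and both were called (adjusted p = 0.025 and 0.0253). The E2f1 knockout decrease passed the threshold without E2f1 knockout replicate 1 or E2f2-labelled replicate 1 or 4.

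Ccr3, the eosinophil receptor for Ccl24, was close to background, with 1, 3 and 3 arrays above it. Its values were -2.72, -4.75, -5.59 and -5.22 in E2f1 knockout livers and -2.89, -2.77, -3.12 and -2.53 in E2f2-labelled livers, against -2.53, -3.12, -1.64 and -2.62 in wild-type livers. E2f1 knockout replicate 1 lay in the wild-type range and the other 3 well below it. The E2f1 knockout decrease of -2.09 ± 0.52 was called (adjusted p = 0.016), but with normexp background correction it was -0.22 and the call was lost, and without E2f1 knockout replicate 3 the adjusted p was 0.0512. In E2f2-labelled livers the difference was -0.35 ± 0.52 (adjusted p = 0.671).

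Ccr9, the receptor for Ccl25 on gut-homing lymphocytes, had -2.52, -1.59, -1.95 and -1.68 in E2f1 knockout livers and -3.45, -2.42, -2.91 and -3.43 in E2f2-labelled livers, against -3.01, -3.77, -2.93 and -2.51 in wild-type livers. E2f1 knockout replicate 1 lay level with the highest wild-type liver and the other 3 above it, and the rise of 1.12 ± 0.31 was called (adjusted p = 0.025), while in E2f2-labelled livers the difference was 0.01 ± 0.31. Leaving out wild-type replicate 2, or replicate 2, 3 or 4 of the E2f1 knockout group, ended the call, with adjusted p up to 0.0754. It also ended with normexp (0.39, adjusted p = 0.0898) and with no filter on dim probes (adjusted p = 0.0539). The Ccr9 probe was above background on 4, 2 and 2 arrays of the groups, so the gene passed the filter through the group where it is high.

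Cxcr3, the T and NK cell receptor for Cxcl9 and Cxcl10, had -1.21, -1.41, -1.93 and -1.55 in E2f1 knockout livers and -1.77, -1.96, -1.97 and -2.34 in E2f2-labelled livers, against -1.05, -1.56, -1.45 and -0.42 in wild-type livers. The E2f2-labelled livers were all below wild type (-0.89 ± 0.25, adjusted p = 0.0261), while the E2f1 knockout livers overlapped it (-0.41 ± 0.25, adjusted p = 0.284). The call was lost without wild-type replicate 1 or 4 or E2f2-labelled replicate 2, 3 or 4, with adjusted p up to 0.074, and also with normexp (-0.32, adjusted p = 0.164) and with no filter (0.0581). Cxcr6, the receptor for Cxcl16, had 0.43, 0.43, 0.29 and 0.16 in E2f1 knockout livers and 0.16, -0.10, 0.07 and -0.44 in E2f2-labelled livers, against 0.38, -0.32, 0.46 and 0.71 in wild-type livers. These groups overlapped and the gene was not called. Cxcr2, the neutrophil receptor for Cxcl1, averaged -2.42 ± 0.82 in E2f1 knockout, -1.40 ± 1.31 in E2f2-labelled and -1.12 ± 0.23 in wild-type livers (SD, n = 4). It was not called, with adjusted p = 0.123 and 0.762, although with the slide as a block the E2f1 knockout decrease had an adjusted p of 0.037. Ccr6, Ccr7 and Ccr8 were not called either, with differences between -0.37 and 0.92. Ccr6, the receptor for Ccl20, was higher in every E2f1 knockout liver than in wild type (0.92 ± 0.33, adjusted p = 0.0653), and with the slide as a block the adjusted p was 0.0335. This gene passed the filter through the E2f1 knockout group alone, where it is high.

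Among the genes not tested, Ccl8 was above background on 2, 0 and 2 arrays. With the dim group set as for Ccl7, the wild-type mean was 3.33-fold above that of E2f2-labelled livers. This is not a strict lower limit, since wild-type arrays not above background entered at their measured value. Ccl8 lies in the same group of neighbouring genes as Ccl2, with Ccl7, Ccl11 and Ccl12 between them. Cxcr4, the receptor for Cxcl12, was above background on 0, 0 and 2 arrays. Its wild-type mean, under the same limit, was 1.49-fold above E2f1 knockout and 1.68-fold above E2f2-labelled livers. Ccr1, a receptor for Ccl3, Ccl5 and Ccl9, was above background on 0 of 12 arrays. Signals of this kind limit what can be said of these genes, since the probe did not detect them well and absence of transcript is not shown.

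E2f2-labelled livers were also compared directly with E2f1 knockout livers, which asks whether the mutants differ from each other. Of the 33 genes, 1 was called lower and 0 higher by limma, where 0.749% and 0.846% of all tested genes were called, and the median log2 difference was -0.36 beside 0.01 for all genes. At an unadjusted p under 0.05 there were 6 lower and 4 higher genes (5.21% and 6.13% of all genes), the higher ones being Ccl25, Ccr3, Cxcl1 and Cxcl14. The groups did not overlap for 2 lower and 2 higher genes (4.18% and 4.68% of all genes). The called gene was Cxcl9, lower in E2f2-labelled livers with a log2 difference of -1.56 ± 0.24 (2.94-fold, adjusted p = 0.00504), in 4 of 4 slides. A gene called against wild type in 1 group alone is therefore not shown to differ between the mutants. The direct difference had adjusted p of 0.155 for Ccr3, 0.126 for Ccr9, 0.16 for Cxcl14 and 0.637 for Cxcl16, which were called in E2f1 knockout livers alone. Among genes called in E2f2-labelled livers alone, it was 0.389 for Ccl25, 0.426 for Ccl9, 0.912 for Ccr2 and 0.523 for Cxcr3. Ccr6 differed by -1.29 ± 0.33 and missed the threshold (adjusted p = 0.0837), but passed it with the slide as a block (adjusted p = 0.049) and without E2f2-labelled replicate 2 (0.0268). It had passed the filter through the E2f1 knockout group alone, where it is high. Without E2f1 knockout replicate 1, Ccr3 was called higher (adjusted p = 0.00325), and without E2f2-labelled replicate 3, Cxcl14 was (adjusted p = 0.00562).

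Many of these genes lie side by side, and neighbours did not always move alike. Positions are those of the probes in the files (mm9). On chr11:83339296-83478111 stand Ccl5, Ccl9, Ccl6, Ccl3 and Ccl4, all tested, of which 3 fell in E2f1 knockout livers and 4 in E2f2-labelled livers, with Ccl6 not called in either. Over all tested genes, 7.48% and 7.85% were lower in those groups. On chr11:81850650-81990510, Ccl2 fell in both groups, Ccl7 and Ccl1 were not called, and Ccl11, Ccl12 and Ccl8 were not tested. On chr5:92752191-92788626, Cxcl9 and Cxcl10 fell in both groups, beside Cxcl11, which was not called. On chr5:91190490-91334593, Cxcl1 was the tested gene of 5.

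**Figure D4:**
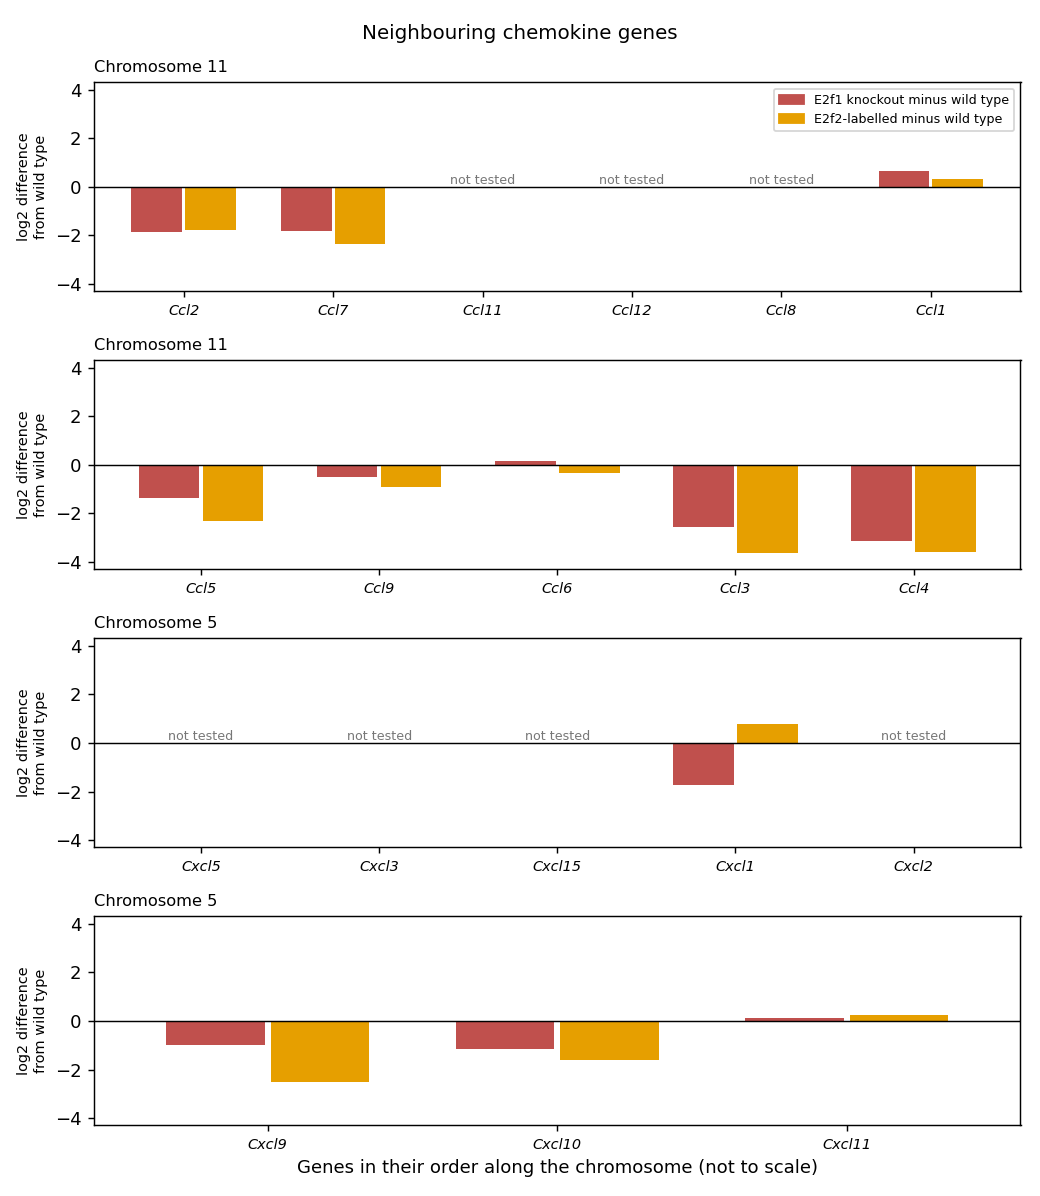
Fitted log2 difference from wild type (bars) for chemokine genes in 4 chromosomal groups, in their order along the chromosome and not to scale. Ccl3 and Ccl4 have the longest bars and Ccl6, between them and Ccl9, some of the shortest.

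Livers of a group differed from each other in several of these genes at a time, a pattern chosen after the values were seen. E2f1 knockout replicates 1 and 2 had higher Cxcl1, Cxcl14, Ccr2 and Cxcr2 than replicates 3 and 4, and E2f2-labelled replicates 1 and 2 had higher Ccl3, Ccr2 and Cxcr2 than their replicates 3 and 4. Ccl3 was above background on only 1 E2f2-labelled array, so its order among those livers is limited by its signal. Replicates with the same number shared a slide. The mean over the 33 genes was 0.20, 0.16, -0.50 and -0.27 in E2f1 knockout livers and 0.16, -0.01, -0.56 and -0.53 in E2f2-labelled livers, against 0.64, 0.55, 0.70 and 0.97 in wild-type livers. All 8 livers of those groups were below the lowest wild-type liver. E2f1 knockout replicate 1 was the liver of its group with the highest Ccl2, Ccl7, Ccl12, Ccr2, Ccr3 and Cx3cr1. Of these, Ccl7, Ccl12 and Ccr3 were above background on 1 E2f1 knockout array each. When E2f1 knockout replicate 1 was left out, 14 genes were lower and 4 higher in E2f1 knockout livers (6.94% and 11.9% of all tested genes). Without E2f1 knockout replicate 3, these counts were 7 and 1, and the shares of all tested genes were also smaller (5% and 7.39%).

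Genes that work with chemokines were counted from lists, and each count stands beside 7.48% lower and 12.8% higher over all tested genes in E2f1 knockout livers and 7.85% and 12.5% in E2f2-labelled livers. In the list of chemokine-related genes with other names, 2 of 10 tested fell and 1 rose in E2f1 knockout livers, and 3 fell and 1 rose in E2f2-labelled livers. The platelet chemokines Ppbp and Pf4 fell, with log2 differences of -2.22 ± 0.47 and -1.44 ± 0.32 in E2f1 knockout and -2.25 and -1.70 in E2f2-labelled livers (adjusted p between 0.00441 and 0.00955). Rarres2, which encodes the attractant chemerin, rose by 0.51 ± 0.15 on the log2 scale in E2f1 knockout livers (adjusted p = 0.0287). Ackr4, a scavenger of Ccl19 and Ccl25, was above background on 1, 4 and 0 arrays and was called higher in E2f2-labelled livers, the group that let it pass the filter (adjusted p = 0.00313). In the list of chemokine receptor signalling, 5 of 21 fell and 0 rose in E2f1 knockout livers, and 7 fell and 1 rose in E2f2-labelled livers, with medians of -0.72 and -1.03. Rgs2, a brake on G protein signalling, fell, with log2 differences of -1.55 and -1.85 (adjusted p = 0.00611 and 0.00252), while the inhibitory G protein subunit Gnai2 fell by 0.61 on the log2 scale in E2f1 knockout livers (adjusted p = 0.0136). Ptk2b, a tyrosine kinase downstream of chemokine receptors, was the gene of this list that rose, by 2.37 ± 0.30 in E2f2-labelled livers (adjusted p = 0.000459), and it was also higher there than in E2f1 knockout livers (1.54 ± 0.30, adjusted p = 0.019). Ackr4, Ptk2b and Il1r1 were chosen after their values were seen.

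Of 18 tested inducers of chemokines, 5 fell and 0 rose in E2f1 knockout livers and 4 fell and 1 rose in E2f2-labelled livers. Nfkb2 and Nfkbie, of the NF-kappaB system, fell, with log2 differences of -1.06 and -1.13 in E2f1 knockout livers (adjusted p = 0.00477 and 0.0103) and of -0.90 and -0.94 in E2f2-labelled livers (adjusted p = 0.00937 and 0.0223). The cytokine gene Tnf was above background on 0, 0 and 3 arrays of the groups and was called lower in both (adjusted p = 0.0102 and 0.00674), having passed the filter through wild type alone. With the dim group set as for Ccl7 and every wild-type array at its measured value, mean Tnf in wild type was 1.96-fold above E2f1 knockout livers. It was 2.3-fold above E2f2-labelled livers. Neither is a strict lower limit, since not every wild-type array was above background. Il1r1, a receptor for interleukin-1, was the inducer that rose, by 2.40 ± 0.43 in E2f2-labelled livers (adjusted p = 0.00356), and it was higher there than in E2f1 knockout livers (1.91 ± 0.43, adjusted p = 0.0475). In the list of chemokine cleavage and presentation, 3 of 12 fell and 1 rose in E2f1 knockout livers, and 2 fell and 2 rose in E2f2-labelled livers, of which the higher counts are near the share over all genes. The heparan sulphate carrier Sdc4 fell, with log2 differences of -2.14 ± 0.17 and -2.39 ± 0.17 (adjusted p = 1.84e-05 and 7.15e-06), and Dpp4, a peptidase that trims several chemokines, rose by 1.10 and 1.00 on the log2 scale (adjusted p = 0.00538 and 0.00798).

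Some marker lists of leukocytes and other liver cells fell with these genes and others did not, and their part in the results was not tested. Each count of calls in these lists stands beside the shares over all tested genes. Those were 7.48% lower and 12.8% higher in E2f1 knockout livers and 7.85% and 12.5% in E2f2-labelled livers. Of 11 tested markers of inflammatory macrophages and monocytes, 7 fell and 0 rose in E2f1 knockout livers and 8 fell and 0 rose in E2f2-labelled livers. The list's mean per liver ran from 0.72 to 1.83 in E2f1 knockout and from 0.51 to 1.34 in E2f2-labelled livers, against 2.43 to 3.05 in wild-type livers, so that the groups did not overlap wild type. Gpnmb, counted among those that fell, was above background on 0, 0 and 4 arrays and passed the filter through wild type alone. Itgax fell, with log2 differences of -3.14 and -4.29 (adjusted p = 0.0034 and 0.000511). Resident Kupffer cell markers went the other way, with 3 of 8 higher and 0 lower in E2f1 knockout livers and 2 higher and 0 lower in E2f2-labelled livers. Their mean ran from 3.01 to 4.11 and from 2.40 to 4.19, against 0.22 to 2.90 in wild-type livers. Cd163, counted among those that rose, was above background on 4, 4 and 0 arrays and passed the filter through the groups where it is high.

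Neutrophil markers gave 5 lower of 11 and 0 higher in E2f1 knockout, and 3 lower and 0 higher in E2f2-labelled livers. Their means overlapped between groups, from 0.01 to 2.80 and from -0.05 to 3.01, against 2.55 to 3.92 in wild-type livers. Of 10 T and NK cell markers, limma called 0 in E2f1 knockout livers, where 2 were lower at an unadjusted p under 0.05, and 4 were lower in E2f2-labelled livers, where Gzmb was above background on 0 arrays. The list's mean was -0.09 to 0.33 in E2f1 knockout and -0.61 to -0.22 in E2f2-labelled livers, against 0.28 to 1.02 in wild-type livers. Among 5 B cell markers, Ms4a1 rose in E2f1 knockout livers and 0 were called in E2f2-labelled livers, where 2 were lower at an unadjusted p under 0.05. Among 6 dendritic cell markers, Batf3 fell in E2f2-labelled livers and 0 were called in E2f1 knockout livers, where 2 were lower at an unadjusted p under 0.05. At that unadjusted threshold, 12.2% of all tested genes were lower in E2f1 knockout livers and 12.4% in E2f2-labelled livers.

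Stellate cell and fibrosis markers gave 4 lower of 8 in E2f1 knockout livers and 5 lower in E2f2-labelled livers, with 0 higher, and means of -0.41 to 0.42 and -0.83 to -0.37, against 0.34 to 0.99 in wild-type livers. Endothelial markers gave 2 lower of 9 in each group and 0 higher, with log2 differences of -2.92 and -2.83 for Lyve1 (adjusted p = 8.77e-05 and 6.93e-05). The endothelial means were 0.93 to 1.37 and 1.11 to 1.5, against 1.77 to 1.87 in wild-type livers. Per-liver medians of the list overlapped, with 0.67 to 1.35 and 0.73 to 1.6, against 1.21 to 1.57 in wild-type livers. The median log2 difference over the list was -0.46 and -0.1, and 8 and 5 of the 9 were negative. Hepatocyte markers gave 3 higher of 9 in E2f1 knockout livers and 2 higher in E2f2-labelled livers, and 0 of 4 tested cholangiocyte markers were called in either. At an unadjusted p under 0.05, 2 cholangiocyte markers were higher in E2f1 knockout livers and 0 in E2f2-labelled livers. The shares of all tested genes higher at that threshold were 21.3% and 22.6%. A list of adipocyte markers, added after values were seen, had 4 tested genes, of which 1 fell in E2f1 knockout livers and 3 in E2f2-labelled livers. Its mean was 3.37 in E2f1 knockout replicate 1, against 0.27, -0.40 and -0.91 in the other E2f1 knockout livers, -1.78 to -0.47 in E2f2-labelled livers and 0.68 to 1.93 in wild-type livers.

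**Figure D5:**
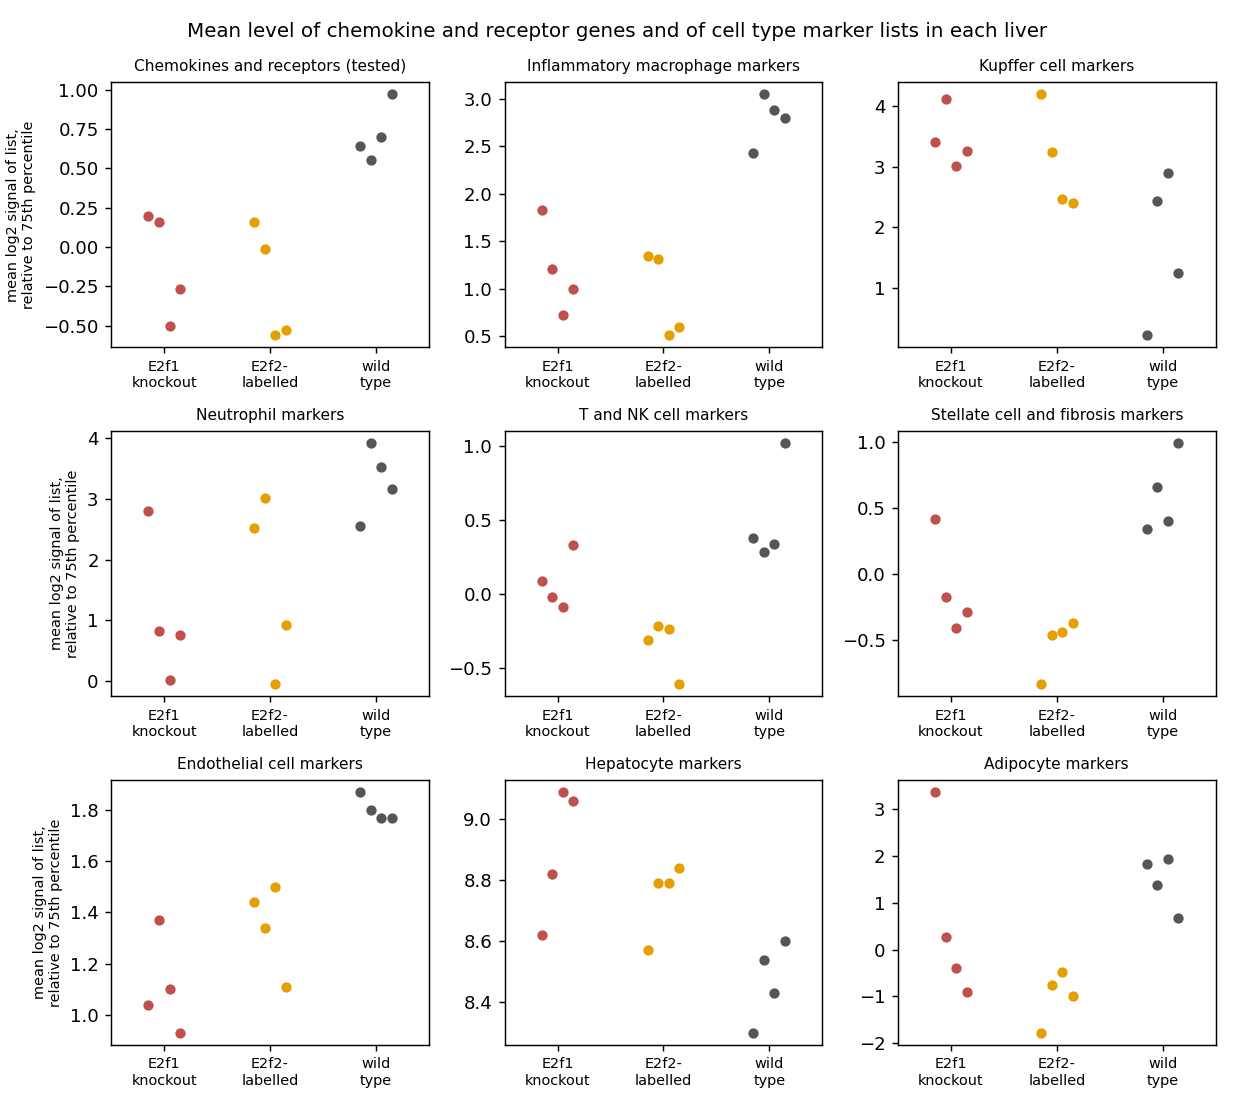
Mean log2 signal of the tested chemokine and receptor genes and of 8 marker lists in each liver (points), by group. The chemokine and macrophage panels put every wild-type liver on top, the Kupffer cell panel puts 1 wild-type liver at 0.22, and E2f1 knockout replicate 1 stands highest in the adipocyte panel.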

How the data were processed

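The submitters' processing notes name Agilent Feature Extraction 10.7.3.1 as the program that read each array. The authors' deposited scanner files hold an intensity for every spot, linear and already corrected for background per the file headers. The authors' deposited series matrix holds log2 values, made in a way that the sources used here do not give, and served as an alternative. Per the labels, 50 ng of total RNA was labelled with Cy3.

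Spots that are controls or carry an outlier mark were removed, and the rest were averaged per probe. Each value is the log2 of that signal after subtraction of its 75th percentile (log2) on the same array. Probes were tested where 3 or more arrays of some group were well above background, and the brightest tested probe stood for its gene, which left 28434 probes and 20572 genes. Of the 54 genes, 24 were above background on all 12 arrays and 0 of their probes were saturated. The 12 arrays were fitted together with limma 3.58.1 (R 4.3.3, data.table, version 1.17.8) without covariates, with 9 residual and 3.15 prior degrees of freedom, and p-values were adjusted by Benjamini-Hochberg over all genes tested. The fit was tested on simulated data. The number of livers limits the precision.

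Same-numbered arrays shared a slide in all 12 pairs, and their deviations from the group means correlated with r from 0.041 to 0.424, of which 10 were above 0.1. Fits were repeated with normexp correction (offset 50), median centring, quantile normalization, values from the series matrix, 2 other filters on dim probes, the mean of all tested probes, array weights, the slide as a block, and leaving out each array in turn.

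Genes given with values in every array were those called in either comparison with wild type and the tested receptors of those ligands, and at most 3 genes per list were named by smallest p in E2f1 knockout livers, then in E2f2-labelled livers, plus 3 genes named after their values were seen. The counts cover every tested gene, of which 1 is not reported here by itself. The genes, roles and lists were chosen with earlier results of these data known. A count of livers that do not overlap, the adipocyte list and the interferon motif were added after values were seen. Probe positions are mm9 as in the files, and promoter windows are RefSeq's for GRCm38.p6, which were not converted into each other. No annotation of the mm9 build was used here, so the exon or untranslated region of a probe is not stated.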

Additional observations from a re-analysis of the deposited data

Results flagged for a closer look

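In 4 of 75 groups of 4 livers, 1 liver stood apart from the other 3 by a gap whose share of the group's range was above Dixon's critical value, which chance passes in about 1 of 20 groups. For Ccl4, E2f2-labelled replicate 2 was at -1.34, against -2.23 for the nearest and -2.34 for the farthest of the other E2f2-labelled livers, and still below every wild-type liver. For Ccr7, wild-type replicate 2 was at -3.57, against -1.83 for the nearest and -1.64 for the farthest of the other wild-type livers. For Ccr8, E2f1 knockout replicate 4 was at -0.03, against -1.54 for the nearest and -1.74 for the farthest of its group. For Cx3cl1, E2f2-labelled replicate 1 was at -1.87, against -1.49 for the nearest and -1.43 for the farthest of its group.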

How the results depend on the processing

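With the slide as a replicate block, 13 genes were lower and 4 higher in E2f1 knockout livers and 14 lower and 3 higher in E2f2-labelled livers. Calls over all genes were also more frequent in that fit (8.86% lower and 17.6% higher, and 9.25% and 19.5%). In it 2 were lower in E2f2-labelled than in E2f1 knockout livers instead of 1. The higher count in E2f1 knockout fell to 1 with no filter on dim probes and with the filter on all 12 arrays. The higher count in E2f2-labelled livers fell to 1 with median centring (14 lower) and with no filter, and no filter also gave 2 lower genes between the mutants. Normexp shrank the medians to -0.40 and -0.32. Over all genes, the share of calls that were higher was 63.1% in E2f1 knockout livers and 61.4% in E2f2-labelled livers, against 50.4% and 49.5% with quantile normalization, 50.3% and 49.5% with series matrix values and 50.9% and 47.6% with median centring. All-gene calls numbered 4173 and 4183, against 2691 with no filter in E2f1 knockout and 6460 with array weights in E2f2-labelled livers. Leaving out 1 array at a time gave 7 to 14 lower and 1 to 4 higher genes in E2f1 knockout (median -1.02 to -0.68), 9 to 15 lower and 1 to 2 higher in E2f2-labelled livers (-0.75 to -0.40), and 1 to 2 lower and 0 to 1 higher between the mutants (-0.43 to -0.18). The higher counts were 1 without wild-type replicate 2 or without replicate 2, 3 or 4 of the group compared. Calls that held in every fit that tested the gene included those of Ccl3, Ccl4, Ccl24, Cxcl9, Cxcl10, Cxcl17 and Cx3cr1 in both groups, Cxcl16 in E2f1 knockout and Ccl5 and Ccl9 in E2f2-labelled livers. Among uncalled differences the sign turned for Ccl25 in E2f1 knockout (-0.06 with the mean of probes, and -0.01 to 0.37 when 1 array was left out, the lowest without wild-type replicate 3). In E2f2-labelled livers it turned for Ccr3 (0.07 with normexp), for Cxcl14 (-1.11 to 0.41 when 1 array was left out, the highest without E2f2-labelled replicate 3) and for Ccr9. Ccr9 was -0.06 with quantile normalization and with series matrix values, -0.05 with median centring, and -0.23 to 0.19 when 1 array was left out, below 0 without wild-type replicate 2 or E2f2-labelled replicate 2 or 3. The cause of these changes was not tested. Genes near background, such as Ccr3 and Ccr9, are limited by their signal.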
